A study of Mus musculus with 4 samples.

Results

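Neural crest and head mesenchyme genes were followed in RNA sequencing of micro-dissected mouse forebrain at E10.5, a stage of embryonic life when the telencephalic vesicles are forming. They are a list of 28 genes matched by symbol to the first column of the count table, which holds 24982 genes, and all 28 had a row there. The cKO libraries (n = 2) came from forebrain of Sox1 cre+/-; Chd7 f/f embryos, in which a Cre recombinase at the Sox1 locus of the early neural tube acts on a pair of floxed alleles of Chd7, the gene of an ATP-dependent chromatin remodeller. The control libraries (n = 2) came from Chd7 +/f embryos, with 1 floxed allele and no Cre named. All 4 libraries therefore carry at least 1 floxed Chd7 allele, and an effect of the Cre allele cannot be told apart from that of Chd7 loss. The sources used here do not say whether a library is 1 embryo or a pool, nor how much tissue around the brain was left on, so the p-values below rest on the spread between the libraries alone.

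The neural crest is a population of cells that leaves the border of the neural tube, migrates, and gives rise in the head to facial skeleton and connective tissue, to peripheral glia and neurons, and to pigment cells. Together with mesoderm it forms the head mesenchyme, the loose tissue that wraps the embryonic forebrain and from which meninges and vessel-wall cells arise. CHD7 is mutated in human CHARGE syndrome, and work in frog embryos and human crest cells has tied it to crest formation. Since these cells lie outside the neuroepithelium, their transcripts in a forebrain dissection are also a measure of the tissue taken. Some of the genes are used by the brain itself: Sox9 and Ednrb are transcribed in neural progenitors, and Foxd1 in the ventral diencephalon. In bulk tissue, fewer cells of a type and less RNA per cell cannot be told apart.

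Libraries held 16581252 to 17096522 counts. Chd7 checked the labels: it stood at 136 and 132 CPM (counts scaled to library size) in cKO replicates 1 and 2, against 339 and 345 CPM in control replicates 1 and 2. The forebrain gene Lhx2, a LIM-homeobox factor, was present in every library, at 157 and 125 CPM in the cKO and 298 and 216 CPM in the control. Lhx2 was itself lower in the cKO (log2 fold change −0.87, SE 0.15, edgeR adjusted p = 0.0295), so it shows presence only. Of the 28 crest and mesenchyme genes, 26 passed the filter on low counts and were tested with the 14235 genes of the whole comparison. The other two, Tcf21, a mesenchymal bHLH factor, and Foxd3, a forkhead factor of early crest, had no more than 3 counts in any library. Tcf21 had 0 counts in all 4 libraries. Set against the label, Sox10, the defining factor of migrating crest, was scarce, reaching at most 2.35 CPM. Levels differed among the other crest genes: Erbb3 reached at most 2.94 CPM, whereas Ngfr ran from 12.5 to 23.5 CPM and Tfap2b from 23.0 to 84.5 CPM. Mesenchyme genes such as Prrx1, Alx4 and Pdgfra were present in every library.

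Few of these genes differed between the genotypes beyond their spread, and the libraries of a single genotype differed widely in them. Ednrb and Foxd1 fell in the cKO, 0 genes rose, and 24 of 26 did not pass the test. The 2 calls are 7.69% of the 26 genes tested; over all genes tested, 3.70% were called in either direction, 1.57% higher and 2.13% lower (edgeR quasi-likelihood test, Benjamini-Hochberg adjusted p under 0.05). At an unadjusted p under 0.05 in edgeR stood 7 of the 26, or 26.9%, against 17.5% of all genes in either direction. Of the members, 7 were lower and 0 higher. The split by direction over all genes at this limit was not counted. DESeq2 and limma-voom also called 0 of the 26 higher. The median log2 fold change, cKO over control, was −0.23, against 0 over all genes tested; without control replicate 2 or without cKO replicate 2 it was 0.05. The groups did not overlap for 8 genes, or 30.8%, against 48.3% of all genes. In all 8 the cKO libraries lay below both controls, against 24.0% of all genes, and for 0 they lay above both, against 24.3%.

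**Figure D1:**
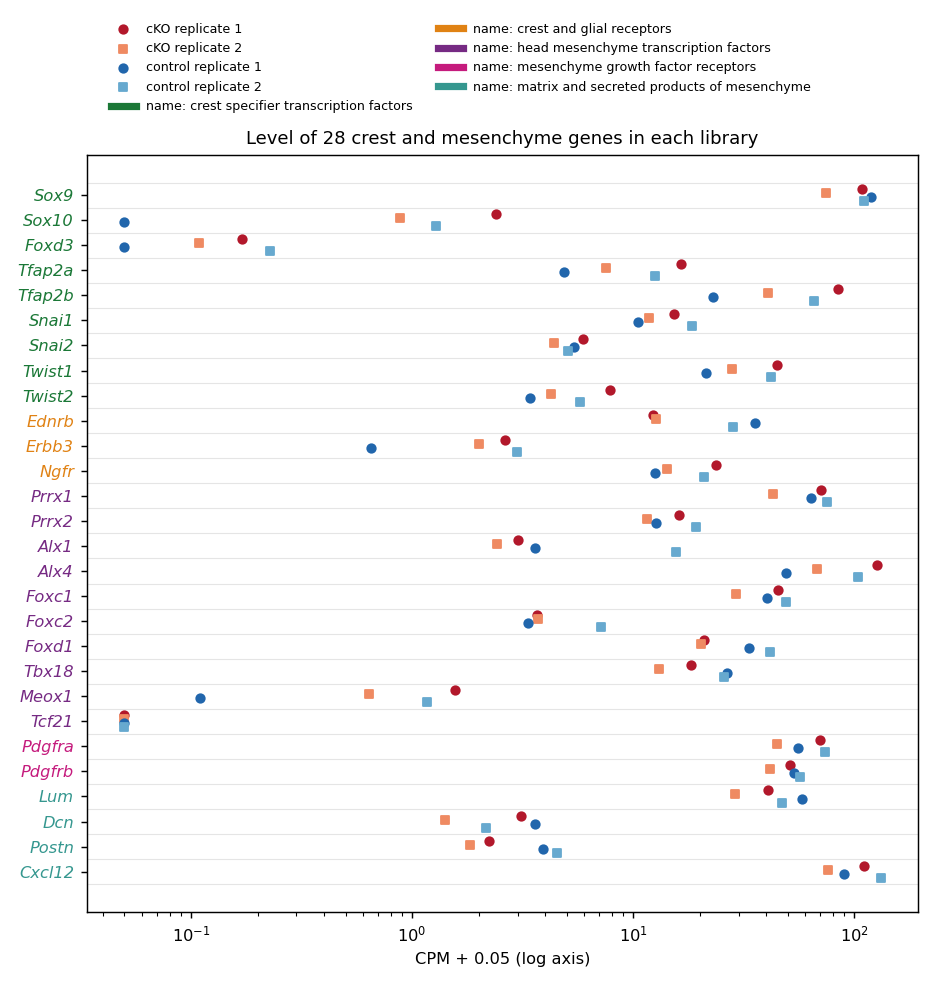
Level of each of the 28 genes in each library, as CPM plus an offset of 0.05 on a log axis, with cKO libraries in red and orange and control libraries in blue; names are coloured by role. Ednrb and Foxd1 show cKO points apart from control points, whereas for Tfap2b and Alx4 cKO replicate 1 and control replicate 2 lie at the high end and cKO replicate 2 and control replicate 1 at the low end.

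The clearest decrease was in Ednrb (GRCm38 chromosome 14, 103814615 to 103844508), the endothelin B receptor, which crest-derived pigment and enteric precursors need. It measured 12.2 and 12.7 CPM in cKO replicates 1 and 2, against 35.6 and 28.1 CPM in control replicates 1 and 2. Both cKO libraries were below both controls, and the cKO pair lay close together. The level was 2.56-fold lower in the cKO (log2 fold change −1.36, SE 0.14, edgeR adjusted p = 0.00439), and the call was kept when any library was left out (adjusted p = 0.000683 to 0.0186). In the authors' deposited table its log2 fold change was −1.36, with an adjusted p of 9.82e-10.

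Foxd1 (chromosome 13, 98354245 to 98356705), a forkhead factor of mesenchyme and of the ventral diencephalon, measured 20.8 and 20.3 CPM in cKO replicates 1 and 2, against 33.3 and 41.3 CPM in control replicates 1 and 2. The groups did not overlap. Its level was 1.82-fold lower in the cKO (log2 fold change −0.86, SE 0.12, edgeR adjusted p = 0.0132). With cKO replicate 2 left out this call ended (−0.84, adjusted p = 0.0611); it held with each of the other 3 left out.

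The windows around the annotated starts of these called genes are shown because both genes fell in both cKO libraries. They run from 250 bases before to 50 bases after a start, and are from RefSeq on GRCm38.p6. The Ednrb window belongs to a start that lies inside the span given above, not at its outer end. Capitals mark the AP-2 motif (GCCNNNGGC, its own reverse complement), the motif bound by the Tfap2 factors of the list.
Ednrb promoter, chr14:103843652-103843951, minus strand: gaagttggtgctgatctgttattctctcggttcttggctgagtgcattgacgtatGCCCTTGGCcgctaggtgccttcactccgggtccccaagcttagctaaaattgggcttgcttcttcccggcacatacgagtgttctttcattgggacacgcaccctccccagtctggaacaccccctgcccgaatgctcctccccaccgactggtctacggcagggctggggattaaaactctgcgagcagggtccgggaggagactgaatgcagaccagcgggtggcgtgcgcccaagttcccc
Foxd1 promoter, chr13:98353995-98354294, plus strand: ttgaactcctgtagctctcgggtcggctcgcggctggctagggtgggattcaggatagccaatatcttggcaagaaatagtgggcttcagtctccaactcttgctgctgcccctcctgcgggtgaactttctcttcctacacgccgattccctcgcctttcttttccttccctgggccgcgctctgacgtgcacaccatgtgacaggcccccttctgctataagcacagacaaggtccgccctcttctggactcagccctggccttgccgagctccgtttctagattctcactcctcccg
The Ednrb window held 1 match and the Foxd1 window 0. Both windows lacked the other motifs searched on both strands, ACAAAG (a SOX motif) and CAGGTG (an E-box of the kind bound by Snai factors), and no motif overlapped another. Windows were found for 17 of the 28 genes, 19 windows in all. The AP-2 motif was in those of 6 of these 17 genes, against 16.6% of the 32851 windows of all genes. The SOX motif was in those of 1 gene, against 18.7%, and the E-box in those of 1, against 20.2%. The list is counted by gene and the background by window, so the shares are not of the same unit. In the list, Snai1 held all 3 motifs. A match describes these letters and does not show binding.

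The other crest receptors stood differently. Erbb3, the neuregulin co-receptor of crest-derived glia, had 43 and 33 counts in cKO replicates 1 and 2, against 10 and 50 counts in control replicates 1 and 2. The low value was that of control replicate 1, and the groups overlapped (log2 fold change 0.35, SE 0.63, edgeR adjusted p = 0.834). Ngfr, the p75 neurotrophin receptor and a surface marker of migrating crest, measured 23.5 and 14.2 CPM in the cKO and 12.5 and 20.9 CPM in the control (0.17, SE 0.29, adjusted p = 0.826). Without control replicate 1 the log2 fold changes of Erbb3 and Ngfr were −0.37 and −0.15, on the other side of 0.

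Of the 9 crest transcription factors, 8 were tested and none was called (edgeR; 0 at an unadjusted p under 0.05, and 0 with DESeq2 or limma-voom). Their log2 fold changes ran from −0.33 to 1.34, with a median of 0.30. The defining factor of migrating crest, Sox10, was near the limit of detection: it had 39 and 14 counts in cKO replicates 1 and 2, against 0 and 21 counts in control replicates 1 and 2. The groups overlapped, and its fitted value of 1.34 on the log2 scale had an SE of 1.03 (edgeR adjusted p = 0.573). Without control replicate 2 it was called higher (adjusted p = 0.0468), in a fit whose lone control library had 0 counts, and in none of the other fits that leave out a library.

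Tfap2b, an AP-2 factor of crest and facial mesenchyme, showed the spread of this group most plainly among the abundant factors. It measured 84.5 and 40.8 CPM in cKO replicates 1 and 2, against 23.0 and 65.6 CPM in control replicates 1 and 2. cKO replicate 1 and control replicate 2 were the high libraries, so each genotype had a high and a low one. The log2 ratio of control replicate 2 to control replicate 1 was 1.51 and that of cKO replicate 1 to cKO replicate 2 was 1.05, both larger than the difference between genotypes (log2 fold change 0.50, SE 0.47, edgeR adjusted p = 0.657). Tfap2a, of the same family and also made in surface ectoderm, had the same order of libraries, at 16.3 and 7.45 CPM in the cKO and 4.80 and 12.5 CPM in the control.

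Twist1, the bHLH factor that keeps cranial crest mesenchymal, had 738 and 473 counts in cKO replicates 1 and 2, against 356 and 712 counts in control replicates 1 and 2. The order was that of Tfap2b, and the log2 fold change was 0.19 (SE 0.31, edgeR adjusted p = 0.816). Its paralogue Twist2 and Snai1, a repressor of epithelial genes, had log2 fold changes of 0.40 and −0.11. Snai2, a related repressor, differed least from 0, at −0.02 (SE 0.24). Sox9, which also marks neural progenitors, was the most abundant member per exon length, with a mean of 24.9 RPKM (CPM divided by exon length in kilobases). It measured 108 and 74.1 CPM in the cKO, against 119 and 110.1 CPM in the control. The cKO libraries lay below both controls by different amounts (log2 fold change −0.33, SE 0.15, edgeR adjusted p = 0.317). Leaving out cKO replicate 1 gave −0.63 (adjusted p = 0.013), and leaving out cKO replicate 2 gave −0.0844 (0.752).

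**Figure D2:**
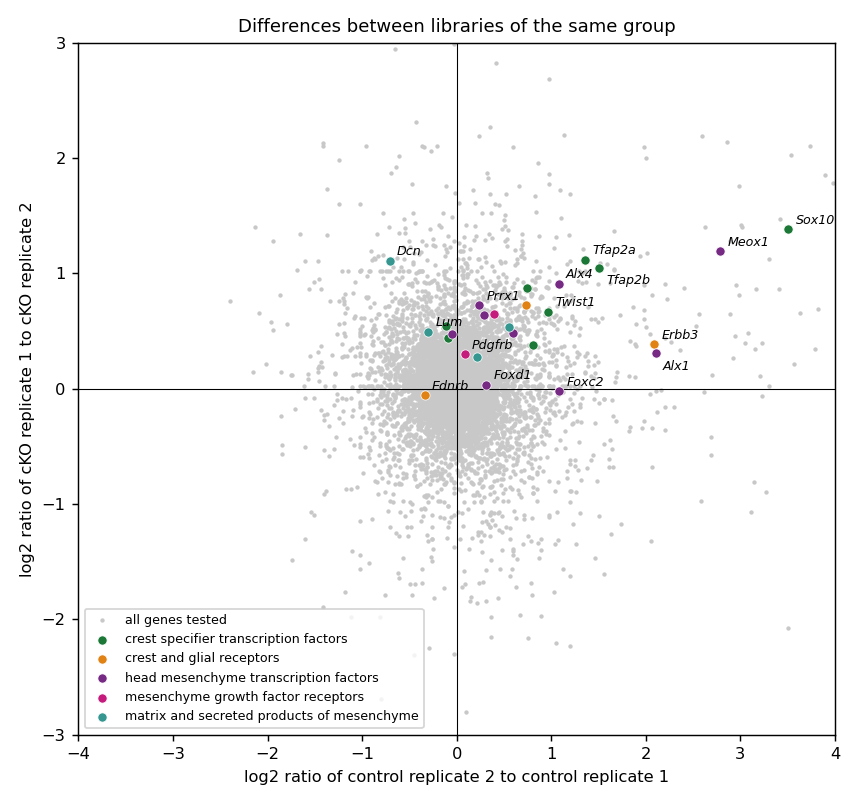
Differences between libraries of a single genotype: for each gene tested, the log2 ratio of control replicate 2 to control replicate 1 (horizontal) and of cKO replicate 1 to cKO replicate 2 (vertical), with all genes in grey and the 26 crest and mesenchyme genes coloured by role; 15 of all genes lie outside the axes. Of the 26, 19 are in the upper right part, above 0 on both axes, against 24.6% of all genes.

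This order of libraries was common in the list. For 19 of 26 genes, or 73.1%, cKO replicate 1 exceeded cKO replicate 2 and control replicate 2 exceeded control replicate 1, against 24.6% of all genes tested. The cKO pair differed by a log2 ratio of at least 0.5 in this direction for 14 of 26 genes, against 6.31% of all genes, and the control pair for 14, against 6.28%. Control replicate 2 exceeded control replicate 1 by a log2 ratio of at least 1 for 8 genes, against 2.02% of all genes. The median absolute log2 ratio within the cKO pair was 0.539 for the list and 0.11 for all genes tested, and within the control pair 0.653 and 0.117. Among genes that average 5 CPM or more it was 0.539 for 20 genes of the list and 0.087 for all such genes in the cKO, and 0.476 and 0.092 in the control. The median absolute log2 fold change between genotypes was 0.353 for the list, below its medians within the cKO pair and within the control pair. For all genes tested it was 0.122, near their within-group medians of 0.11 and 0.117. The larger of the within-group ratios exceeded the difference between genotypes for 21 of the 26 genes. Ednrb, Foxd1, Tbx18, Lum and Postn were the exceptions. The share of all genes that meet this was not counted, so the count does not set the list apart.

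Among the 10 mesenchyme transcription factors, 9 were tested, 1 was called lower (Foxd1) and 0 higher, with a median log2 fold change of −0.30. Alx4, a homeobox factor of the frontonasal mesenchyme, was the most abundant of them per exon length, with a mean of 12.3 RPKM. It measured 127 and 67.6 CPM in cKO replicates 1 and 2, against 49.2 and 104 CPM in control replicates 1 and 2. As for Tfap2b, a high and a low library stood in each genotype (log2 fold change 0.34, SE 0.36, edgeR adjusted p = 0.702). Its relative Alx1, needed for frontonasal development, had another pattern, at 2.95 and 2.37 CPM in the cKO, against 3.54 and 15.6 CPM in the control. Control replicate 2 stood apart from the other 3 libraries. Alx1 had a fitted value of −1.85 on the log2 scale (SE 0.62, edgeR adjusted p = 0.179). Leaving out control replicate 1 gave −2.55 (adjusted p = 0.00193), and leaving out control replicate 2 gave −0.41 (0.644).

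Tbx18, a T-box factor of head mesenchyme and mural precursors, measured 18.3 and 13.1 CPM in cKO replicates 1 and 2, against 26.6 and 25.6 CPM in control replicates 1 and 2. The groups did not overlap, and the log2 fold change was −0.74 (SE 0.16, edgeR adjusted p = 0.0558). It was called lower by DESeq2 (adjusted p = 0.0118) and limma-voom (0.0484), and in the authors' deposited table (0.0119). With cKO replicate 1 left out, edgeR called it lower as well (adjusted p = 0.0192), and with control replicate 1, control replicate 2 or cKO replicate 2 left out it did not (0.153, 0.0718 and 0.169; −0.51 on the log2 scale in that last fit). The paired-related homeobox genes Prrx1 and Prrx2, which mark head and limb mesenchyme, had log2 fold changes of −0.30 and −0.20, and Foxc1 and Foxc2, forkhead factors needed for meninges and skull, −0.27 and −0.52. Prrx1 was called lower without cKO replicate 1 (−0.70, adjusted p = 0.0277) and stood at 0.0206 without cKO replicate 2 (0.967). Meox1, a homeobox gene of somitic mesoderm, had 25 and 10 counts in the cKO, against 1 and 19 counts in the control.

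The platelet-derived growth factor receptors also did not pass the test. Pdgfra, the receptor of mesenchyme, measured 70.0 and 44.5 CPM in the cKO, against 55.5 and 73.2 CPM in the control (log2 fold change −0.17, SE 0.21, edgeR adjusted p = 0.744). Pdgfrb, the receptor of pericytes and other perivascular mesenchyme, measured 51.1 and 41.5 CPM in the cKO, against 53.4 and 56.7 CPM in the control. Its groups did not overlap (−0.25, SE 0.10, adjusted p = 0.274).

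Of the 4 matrix and secreted products, none was called by edgeR, 2 had an unadjusted p under 0.05, 1 was called by DESeq2 and 0 by limma-voom; all log2 fold changes were below 0, with a median of −0.47. Lum, which encodes the keratan sulphate proteoglycan lumican, measured 40.7 and 28.9 CPM in cKO replicates 1 and 2, against 57.6 and 46.8 CPM in control replicates 1 and 2. The groups did not overlap. Its log2 fold change was −0.59 (SE 0.17, edgeR adjusted p = 0.117), with an adjusted p of 0.024 by DESeq2 and 0.0183 in the authors' deposited table. Leaving out control replicate 2 gave −0.73 (edgeR adjusted p = 0.0425) and leaving out cKO replicate 1 gave −0.85 (0.0277), whereas leaving out control replicate 1 gave −0.43 (0.347) and leaving out cKO replicate 2 gave −0.36 (0.339). Postn, the gene of the matrix protein periostin, measured 2.17 and 1.77 CPM in the cKO, against 3.84 and 4.47 CPM in the control. Its groups did not overlap either (−1.07, SE 0.29, adjusted p = 0.107). Cxcl12, a chemokine made by meningeal mesenchyme, measured 110.0 and 75.9 CPM in the cKO, against 89.4 and 131 CPM in the control. Those groups overlapped (−0.25, SE 0.21, adjusted p = 0.603), as did those of Dcn, the gene of the small proteoglycan decorin (−0.35, SE 0.46). Per exon length, Lum had a mean of 17.8 RPKM, Cxcl12 14.2 RPKM, Twist1 20.8 RPKM and Pdgfrb 9.26 RPKM.

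**Figure D3:**
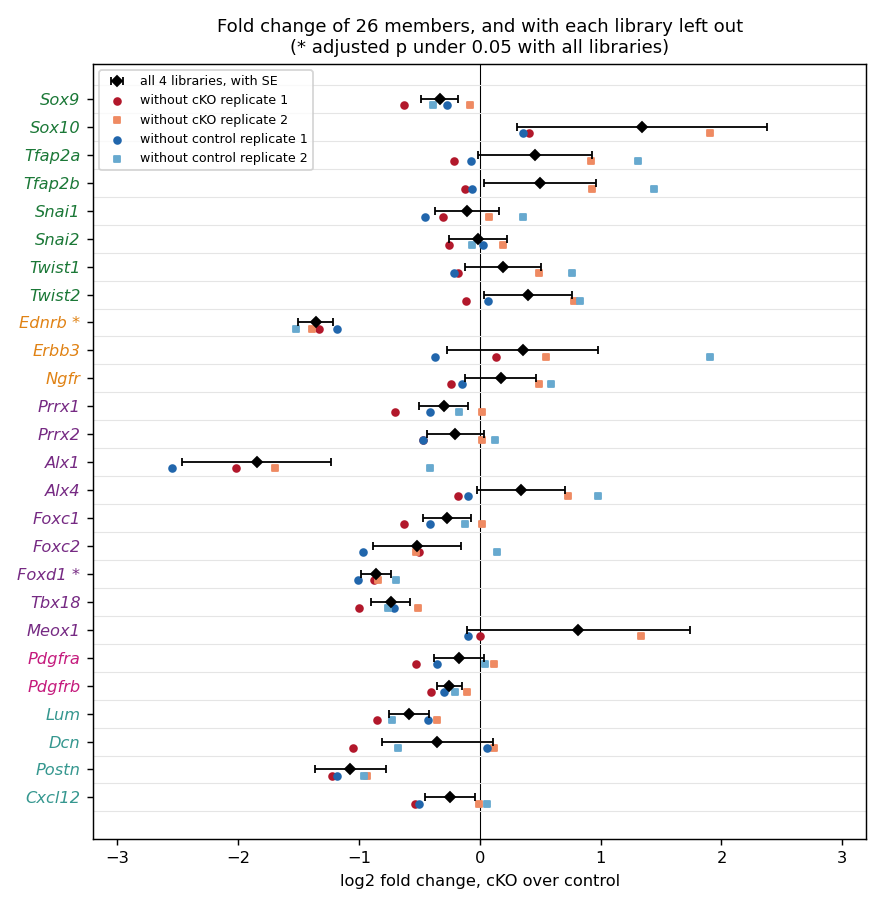
Log2 fold change of the 26 genes tested, cKO over control: black diamonds with SE use all 4 libraries, and coloured points leave out the library named. Ednrb stays between −1.52 and −1.18, whereas Tfap2b runs from −0.12 to 1.45; the points of Sox10 (7.74) and Meox1 (3.97) without control replicate 2 lie outside the axis.

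With each library left out in turn, 17 of the 26 genes changed the sign of their log2 fold change at least once. The share of all genes that did so was not counted. The 9 that kept their sign were Ednrb, Foxd1, Tbx18, Lum, Postn, Pdgfrb, Sox9 and Alx1, all below 0, and Sox10, above 0. Those below 0 are the 8 genes whose cKO libraries lay below both controls, against 24.0% of all genes. Where groups do not overlap, dropping a library leaves the sign nearly fixed, so this is not a separate result. The calls moved too: without control replicate 1, 3 genes were called lower (Ednrb, Foxd1, Alx1), and without control replicate 2, 3 were lower (Ednrb, Foxd1, Lum) and 1 higher (Sox10). Without cKO replicate 1, 6 were lower (Ednrb, Foxd1, Sox9, Prrx1, Tbx18, Lum), and without cKO replicate 2 only Ednrb was. The SE of the fold change was above the median of all genes, 0.112, for 25 of the 26 genes.

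Summed over all 28 genes, the level was 906 and 585 CPM in cKO replicates 1 and 2, against 732 and 966 CPM in control replicates 1 and 2. Of 16 genes of the surface ectoderm, which covers the head mesenchyme, 13 were tested. Their summed level was also highest in cKO replicate 1 and control replicate 2, at 88.2 and 60.6 CPM in the cKO, against 17.5 and 83.6 CPM in the control. Single genes of that list did not all have this order. Epcam measured 20.6 and 17.6 CPM in the cKO, against 6.54 and 11.2 CPM in the control. Cdh1 measured 13.4 and 13.7 CPM in the cKO, against 2.16 and 13.9 CPM in the control. Trp63, the p63 factor of stratifying epithelium, named after its values were seen, had 79 and 27 counts in the cKO, against 0 and 101 counts in the control. No gene of that list was called by edgeR (1 at an unadjusted p under 0.05, 1 by DESeq2, 1 by limma-voom). The smallest p was that of Epcam (log2 fold change 1.11, edgeR adjusted p = 0.0522) and then Grhl3 (0.96, 0.341). The part of surface tissue in the crest values was not tested.

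**Figure D4:**
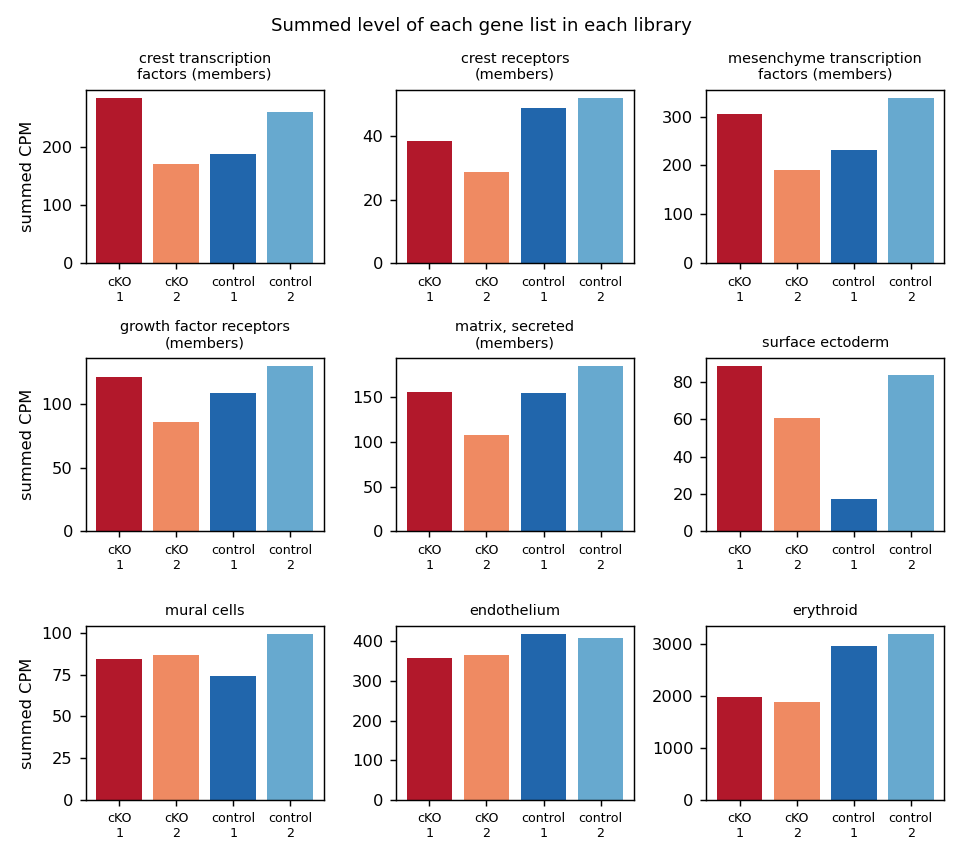
Summed CPM of gene lists in each library, bars from 0, with cKO libraries left of control libraries; the first 5 panels are the roles within the list. Control replicate 1 has the lowest surface ectoderm level, 17.5 CPM, and cKO replicate 2 the lowest level of mesenchyme transcription factors, 191 CPM, against 306, 233 and 338 CPM in cKO replicate 1 and control replicates 1 and 2.

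Further genes of the same lineages were read from the same fit. Of 20 other crest genes, 15 were tested and none was called (0 by DESeq2 or limma-voom, median log2 fold change 0.31). Of these 15, 5 had an unadjusted p under 0.05 in edgeR, 3 higher and 2 lower, against 17.5% of all genes in either direction. The smallest p was that of the receptor gene Kit (0.35, edgeR adjusted p = 0.0635) and of Rxrg (2.03, 0.0785). Of 25 other mesenchyme genes, 19 were tested, 1 rose and 1 fell, with a median of 0.02. Crabp2, a retinoic acid binding protein gene, was at 413 and 408 CPM in the cKO, against 254 and 302 CPM in the control (log2 fold change 0.56, SE 0.08, edgeR adjusted p = 0.011). Shox2, a homeobox gene of facial mesenchyme and also of the diencephalon, was at 5.36 and 3.14 CPM in the cKO, against 16.5 and 12.1 CPM in the control (−1.75, SE 0.28, adjusted p = 0.0196). That call ended with control replicate 1 (0.0527) or cKO replicate 2 (0.0563) left out.

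Lists for other cells are given beside these. Of 15 endothelial genes none was called by edgeR, DESeq2 or limma-voom. At an unadjusted p under 0.05 in edgeR stood 8 of these 15, 7 lower and 1 higher, against 17.5% of all genes in either direction. The median log2 fold change was −0.26, and the summed level was 359 and 364 CPM in the cKO, against 418 and 409 CPM in the control. Of 10 mural cell genes tested none was called (1 at an unadjusted p under 0.05, 0 by DESeq2 or limma-voom; median 0.08), with sums of 84.2 and 87.0 CPM in the cKO, against 74.0 and 99.1 CPM in the control. Of 10 erythroid genes tested, 7 were called lower by edgeR, against 2.13% of all genes. The sums of the erythroid list were 1980 and 1890 CPM in the cKO, against 2964 and 3188 CPM in the control. The embryonic globin gene Hbb-y was among the 7 (log2 fold change −0.70, SE 0.05, edgeR adjusted p = 0.00141). None of 12 macrophage genes and none of 3 muscle genes tested was called (0 and 1 at an unadjusted p under 0.05, 0 by DESeq2 or limma-voom; medians −0.35 and 0.87). The parts of vessels, blood and brain regions in the values of Ednrb, Foxd1, Tbx18 and Lum were not tested.

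Some counts can hold reads of other genes, since the recorded counting sets no strand option. In GENCODE M21, exons of Tfap2a, Twist2, Tbx18 and Pdgfra share bases with exons of opposite-strand genes. For Twist2, 1477 bases are shared with Gm29100, and 45.7% of the 50-base stretches of its transcripts also occur in transcripts of another gene. For Tbx18, 970 bases are shared with D030062O11Rik and 18.3% of the stretches. For Ednrb and Foxd1 there was no such overlap, and 0.38% and 0% of the stretches were shared. Between Foxc1 and Foxc2, the only close relatives of the list that shared stretches with each other, the shares were 0.07% and 0.15%.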

How the data were processed

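Per the labels' protocols, total RNA of micro-dissected forebrain was made into polyA libraries. The submitters' processing notes name HISAT2, featureCounts, DESeq2 and mm10 (GRCm38). The deposited raw counts of paired-end reads over exons come from featureCounts 2.0.1 on a RefSeq annotation, per the file headers. A comparison table deposited by the authors holds log2 fold changes, p-values and adjusted p-values, a Wald score and normalized counts (a signal: each raw count divided by 1 factor per library). Its values are used only where that table is named; 0 columns of per-sample values lacked a sample.

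From the counts, filterByExpr (minimum count 10) kept 14235 genes; the others took 0.0651% to 0.0679% of counts. edgeR 4.0.16 tested cKO against control (TMM, glmQLFit, glmQLFTest, R 4.3.3), two-sided, adjusted over all genes; called means adjusted p under 0.05. The SE is the log2 fold change over the root of F. Precision rests on 16581252 to 17096522 counts a library and on a common coefficient of biological variation of 0.0785. Within-group log2 ratios use CPM with a prior count of 2. RPKM uses exon lengths of GENCODE M21 basic; positions are from RefSeq on GRCm38.p6.

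Replicates were checked as distinct libraries (chi-square per degree of freedom 4.52 for cKO, 5.37 for control). The members and lists were chosen with earlier results of these data known, and the within-group limits of 0.5 and 1 and the order of libraries after values were seen. Named with values are members at an unadjusted p under 0.05, the 6 with the highest RPKM and the 3 with the widest within-group ratio (mean of at least 1 CPM); Tfap2a, Tfap2b, Ngfr, Pdgfra and Meox1 are also given by library, chosen after their values were seen, and up to 4 called genes of each other list, or 2 with the smallest p, were eligible; a result from the forebrain list is not reported here. Ahsp was the 1 list gene without a row. Simulated counts were used to test the edgeR fit. Alternatives were DESeq2 1.42.0 size factors and its Wald test, scaling by upper quartiles, dropping the count filter, keeping genes from 5 CPM on average, limma-voom (limma 3.58.1), a replicate block, and each library left out, where the lone library of a group is assumed to vary like the other group.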

Additional observations from a re-analysis of the deposited data

How the results depend on the processing

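With 2 libraries a group, 1 library can carry a fold change, and the low counts of Sox10, Meox1 and Erbb3 limit their precision. Scaling by DESeq2 or by upper quartiles, dropping the count filter and filtering at 5 CPM each left 2 members called lower and 0 higher, with medians of −0.23 to −0.20; limma-voom called 3 lower. The DESeq2 Wald test called 4 lower. Leaving out a library moved members called lower to between 1 and 6, members called higher to between 0 and 1, the median to between −0.49 and 0.05, and all genes called to between 82 and 339 higher and 136 and 415 lower; the cause was not tested.

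The replicate numbers were not taken as pairs, since deviations of same-numbered libraries had a correlation of −0.053 over all genes tested. With the replicate block, 3 members were called lower (Lum joined, adjusted p = 0.0361), 0 higher, and 137 genes higher and 211 lower in all.

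Uncalled members whose log2 fold change changed sign with a library left out ranged over −0.21 to 1.31 (Tfap2a), −0.12 to 1.45 (Tfap2b), −0.46 to 0.36 (Snai1), −0.26 to 0.19 (Snai2), −0.21 to 0.76 (Twist1), −0.11 to 0.83 (Twist2), −0.37 to 1.91 (Erbb3), −0.24 to 0.59 (Ngfr), −0.70 to 0.0206 (Prrx1), −0.47 to 0.13 (Prrx2), −0.18 to 0.98 (Alx4), −0.63 to 0.0168 (Foxc1), −0.97 to 0.14 (Foxc2), −0.0945 to 3.97 (Meox1), −0.53 to 0.12 (Pdgfra), −1.05 to 0.12 (Dcn) and −0.54 to 0.0559 (Cxcl12).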
